A study of Mus musculus with 14 samples.

Results

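The mRNAs described here are those of the neurotrophins Bdnf and Ntf3 and of the neurotrophin receptors Ngfr, Ntrk2, Ntrk3 and Sort1 in mouse ovarian cancer tumorspheres. These 6 genes, out of 35275 in the expression table, were chosen by name. Ngfr was singled out because its mRNA was high where focal adhesion kinase (FAK) or active β-catenin had been put back, so its levels are given as a description, with no test.

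Expression was measured by poly(A) RNA sequencing in 14 samples of 5 lines, all grown for 5 days as tumorspheres in serum-free medium. KMF is the parental line, a mouse ovarian carcinoma line of ID8 origin recovered from ascites of C57Bl6 mice (3 samples). FAK KO is KT13, a single clone of KMF in which Ptk2, the FAK gene, was disrupted by CRISPR/Cas9 (3 samples). FAK-WT (3 samples) and FAK-R454 (2 samples, where the methods describe 3) are KT13 cells given GFP-tagged FAK or its catalytically inactive form by lentivirus under a CMV promoter, followed by puromycin selection and sorting. β-catenin ΔGSK (3 samples) is KT13 carrying a retrovirus for β-catenin without the sites that GSK3β phosphorylates, together with GFP. The 3 rescued lines thus share the genome of 1 knockout clone with FAK KO, and only KMF is not derived from it. Nothing in the labels says that the samples of a line were separate clones, so p-values measure the spread between samples of a line.

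Neurotrophins are secreted growth factors best known from neurons. They are made as proforms that furin-type convertases or plasmin cleave. The mature factors bind Trk receptor tyrosine kinases, with BDNF and neurotrophin-4/5 binding TrkB (Ntrk2) and neurotrophin-3 binding TrkC (Ntrk3). They also bind the p75 neurotrophin receptor, encoded by Ngfr, which has a death domain and no kinase. Uncleaved proneurotrophins bind p75 together with sortilin (Sort1), a sorting receptor of the secretory pathway.

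Values are in FPKM, fragments counted on a gene scaled to its length in kilobases and to the size of the library, as the authors deposited them, and can be set side by side between genes because they are per length. The libraries held 25390558 to 35289859 fragments on genes (median 28720224), so a short gene can be seen at a few hundredths of an FPKM. Ptk2 ranged from 17.6 to 20.5 FPKM in FAK KO, from 15.1 to 15.9 in β-catenin ΔGSK and from 23.9 to 24.8 in KMF. It ranged from 42.3 to 45.4 FPKM in FAK-WT and from 59.2 to 65.5 in FAK-R454, which counts fragments of the whole gene and does not separate edited alleles from GFP-FAK. Of 8 markers of ovarian surface epithelium or mesothelium, 6 or 7 had a mean above 1 FPKM in each line, with sums of 1069 to 1809 FPKM per sample. The epithelial adhesion genes Epcam and Cdh1 summed to between 0.272 and 1.21 FPKM, and neither had a mean above 1 FPKM in any line.

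Lines were compared by limma on log2(FPKM + 0.1), a scale that understates changes of low genes, for genes with a mean above 1 FPKM in at least 1 of the 2 lines compared. A gene was called when its Benjamini-Hochberg adjusted p over all tested genes was under 0.05 and it differed by at least 1 on the log2 scale in either direction. Ngfr, Sort1 and Bdnf passed the FPKM filter in every comparison. Ntf3, Ntrk2 and Ntrk3 passed it in none and are described by their fragments.

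Ngfr (ENSMUSG00000000120) lies on the minus strand of chromosome 11 at 95568818 to 95587735 (mouse GRCm38), and no other annotated gene overlaps it. In KMF the 3 samples had 0.429, 0.894 and 0.452 FPKM, and in FAK KO 1.45, 1.90 and 2.64 FPKM. The 2 FAK-R454 samples had 4.11 and 2.42 FPKM, and the 3 FAK-WT samples 9.22, 9.42 and 6.87 FPKM. In β-catenin ΔGSK the values were 176, 177 and 164 FPKM. Every sample of KMF lay below every sample of FAK KO, every FAK-WT sample lay above all of these, and the β-catenin ΔGSK samples lay far above the rest. Of the neighbouring lines in that order, only FAK KO and FAK-R454 overlapped.

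The Ngfr mean was 173 ± 7.17 FPKM in β-catenin ΔGSK, 8.50 ± 1.42 in FAK-WT, 2.00 ± 0.604 in FAK KO and 0.592 ± 0.262 in KMF (SD, n = 3 each). That of FAK-R454 was 3.26 ± 1.19 FPKM (SD, n = 2). The FAK-WT mean was therefore 4.26 times, and the β-catenin ΔGSK mean 86.4 times, that of FAK KO. In the latter line 49427 fragments came from Ngfr, against 576 in FAK KO, 657 in FAK-R454, 2563 in FAK-WT and 184 in KMF. On the log2 scale Ngfr differed from FAK KO by 2.06 in FAK-WT, 6.40 in the β-catenin ΔGSK line, 0.67 in FAK-R454 and -1.62 in KMF. FAK-WT differed from FAK-R454 by 1.39. With a pseudocount of 1 in place of 0.1, FAK-WT over FAK KO came to 1.67, β-catenin ΔGSK over FAK KO to 5.87 and KMF over FAK KO to -0.91. By size of fold change Ngfr ranked 49 of 11841 genes from the top in FAK-WT over FAK KO. In β-catenin ΔGSK over FAK KO it ranked 9 of 11915. Ngfr was chosen for its rise in these lines, so high ranks follow from that choice and are description only.

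The parental line, in which FAK is intact, had the lowest Ngfr mRNA of all 5 lines, below the line with inactive FAK. Over FAK-R454 the log2 fold change of Ngfr in KMF was -2.30, and -1.40 with a pseudocount of 1, and it ran from -2.67 to -1.93 as each sample was left out in turn.

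**Figure D1:**
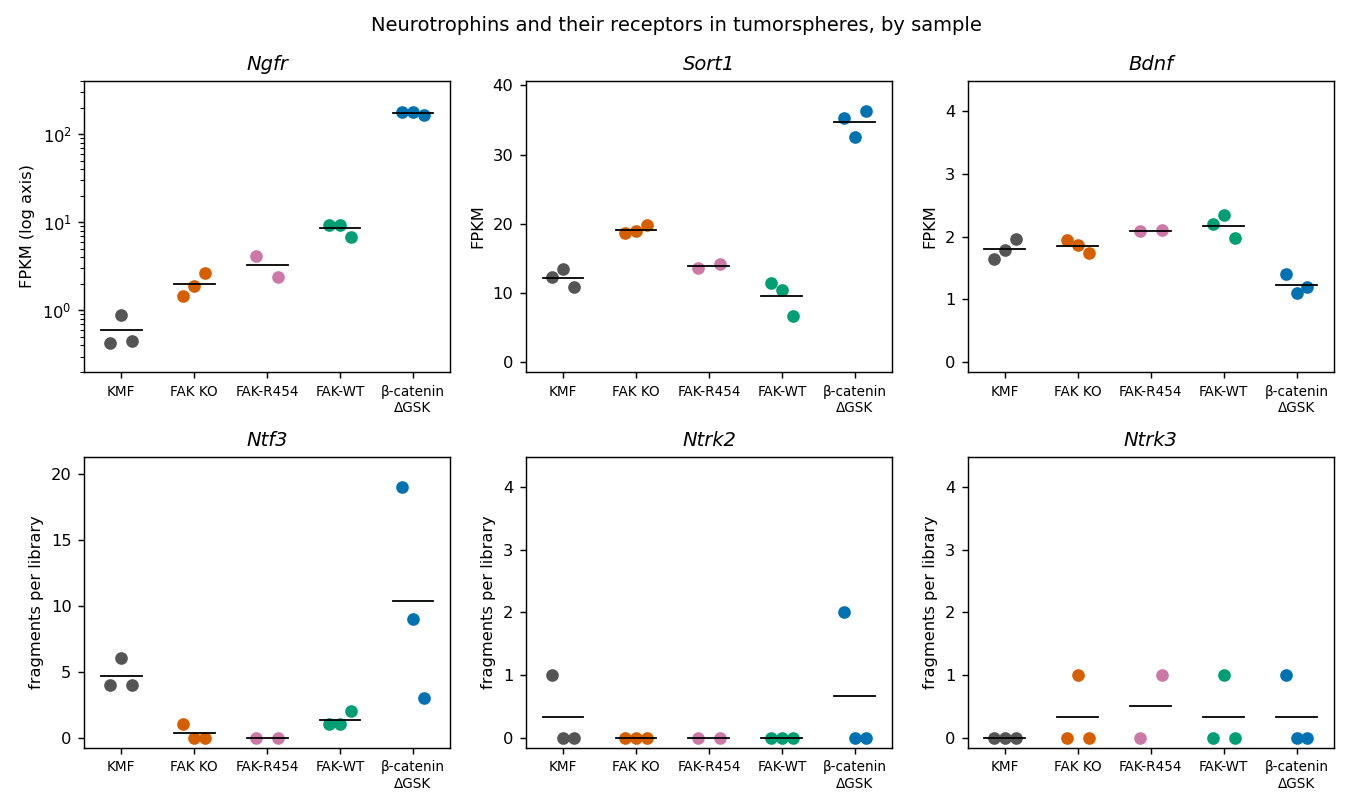
Values of the 6 genes in each of the 14 samples (points) with the mean of each line (bars), as FPKM for Ngfr (log axis), Sort1 and Bdnf and as fragments per library for Ntf3, Ntrk2 and Ntrk3. Ngfr climbed from under 1 FPKM in KMF to over 160 in β-catenin ΔGSK, Sort1 lay lowest in FAK-WT and highest in β-catenin ΔGSK, and Ntrk2 and Ntrk3 reached at most 2 and 1 fragments in any library.

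The sequence just upstream of Ngfr is shown because the gene had the widest range of the 6 between lines. The RefSeq promoter window of Ngfr (GRCm38.p6, 250 bases before to 50 after the start, minus strand) lies on chromosome 11 at 95587649 to 95587948. It is 71.7% G and C, more than in 92.6% of all promoter windows, and holds 23 CpG. RefSeq places the start 37 bases inside that of GENCODE, and the 213 bases upstream of the GENCODE start, at chr11:95587736-95587948 on the minus strand, read as follows, with GGGCGG, the core of the GC box, in capitals.
Ngfr upstream: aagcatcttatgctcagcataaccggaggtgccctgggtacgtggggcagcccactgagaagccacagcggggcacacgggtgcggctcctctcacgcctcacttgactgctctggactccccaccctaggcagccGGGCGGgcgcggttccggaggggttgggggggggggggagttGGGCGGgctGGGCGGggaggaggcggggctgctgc
GGGCGG occurs 3 times in this stretch and 4 times, on either strand, in the whole window, and 35.9% of 32544 promoter windows hold it at least once. ATCAAAG and TTCAAAG, forms of the core word of TCF/LEF binding, were searched on both strands. They are not in the Ngfr window, and 3.73% and 5.15% of all windows hold them. Other forms of that core word were not searched. The letters read here cover only this window and were not tested against binding data.

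The genes around Ngfr showed no common shift. Within 1 Mb of its start 26 other genes were tested, with a median change, over FAK KO, of -0.04 on the log2 scale in the β-catenin ΔGSK line, equal to the median of chromosome 11 to that precision. They ranged from -2.28 for Col1a1, a fibrillar collagen chain, to 1.54 for the homeobox gene Dlx3. In FAK-WT over FAK KO their median was 0.06, ranging from -0.53 for Acsf2 to 2.70 for Col1a1.

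**Figure D2:**
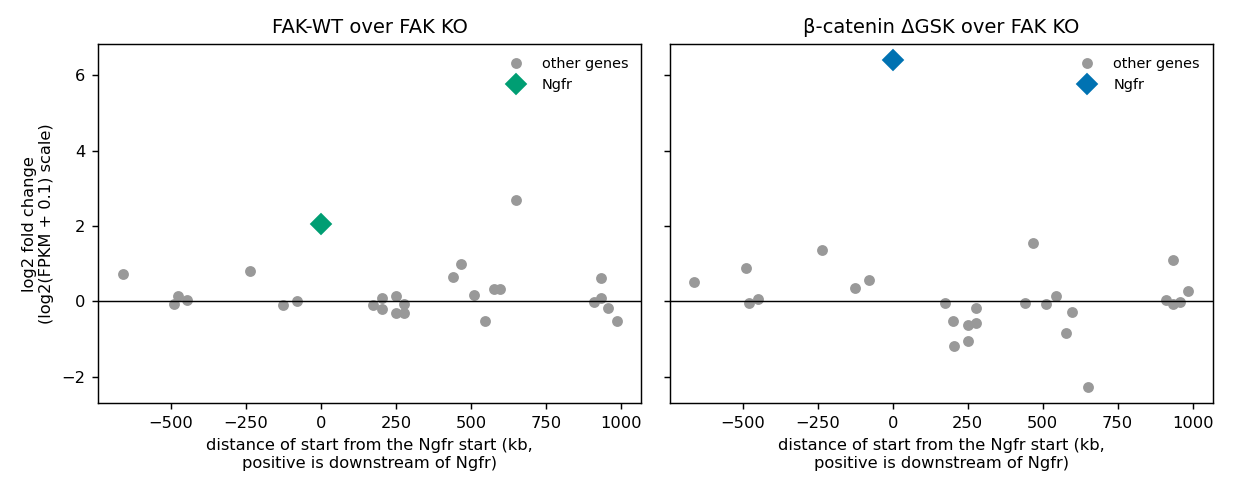
Log2 fold change over FAK KO, on the log2(FPKM + 0.1) scale, against the distance in kb of each gene's start from that of Ngfr, for the 26 tested genes within 1 Mb (grey points) and Ngfr (diamond), in FAK-WT (left) and β-catenin ΔGSK (right). Ngfr lies at 2.06 and 6.40, while the medians of the other genes were 0.06 and -0.04.

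Because Ngfr is also a marker of Schwann cells and of neural crest derivatives, markers of those cells were read in the same samples. The 5 Schwann and glial markers summed to 0.423 to 0.486 FPKM in β-catenin ΔGSK, below the 2.20 to 2.67 FPKM of FAK KO, the 2.15 to 2.49 of FAK-WT, the 2.53 to 2.96 of FAK-R454 and the 3.43 to 4.25 of KMF. Sox10, the defining transcription factor, was at 0 in every sample of KMF and β-catenin ΔGSK, and the mean of Gfap stayed under 0.1 FPKM in every line. The 5 neuronal markers summed to 29.8 to 35.4 FPKM in β-catenin ΔGSK, 36.9 to 41.4 in FAK KO, 30.4 to 31.5 in FAK-WT, 32.2 to 34.3 in FAK-R454 and 19.7 to 22.2 in KMF. Tubb3 carried most of this sum, with a mean of 33.0 FPKM in FAK KO and 11.3 in KMF, and single markers differed from it. Rbfox3, the neuronal nuclear antigen NeuN, had a mean of 5.47 FPKM in KMF and under 0.1 in each other line, while Snap25 had 1.74 FPKM in β-catenin ΔGSK and 1.43 in FAK KO. In bulk samples such as these, fewer cells expressing a gene and less of its RNA per cell cannot be told apart.

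The genes whose log2(FPKM + 0.1) was most alike that of Ngfr over the 14 samples, out of 12255 others, were Plat (Pearson's r = 0.990), Nkain1 (r = 0.984) and Ttc9 (r = 0.983). Plat encodes tissue plasminogen activator, which makes plasmin. It averaged 14.6 FPKM in KMF, 17.1 in FAK KO, 19.3 to 20.7 in the FAK-R454 samples, 22.5 in FAK-WT and 41.0 in the β-catenin ΔGSK line. That is the same order of lines as Ngfr over a much narrower range. The shared order follows from choosing Plat by this correlation and is description only. The 14 points share 5 lines, and samples of a line lie together, so these values describe 5 levels rather than 14 independent ones.

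Sort1 (ENSMUSG00000068747, plus strand of chromosome 3 at 108284091 to 108361511) was the most abundant member in every line but β-catenin ΔGSK. Its exons overlap an antisense gene, Gm12523, listed at no more than 0.320 FPKM in any sample, and whether the counting used strand is not given in the sources used here. Sort1 had 18.7, 18.9 and 19.9 FPKM in FAK KO and 11.5, 10.5 and 6.63 FPKM in FAK-WT. The FAK-R454 samples had 13.5 and 14.2 FPKM, and the KMF samples 12.3, 13.4 and 10.9 FPKM. In β-catenin ΔGSK they had 35.2, 32.6 and 36.3 FPKM. All lines with FAK, active or inactive, lay below FAK KO without overlap, and the β-catenin ΔGSK samples all lay above it.

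Between FAK-WT and FAK KO, Sort1 fell by 1.04 on the log2 scale (SE 0.18, adjusted p = 0.00304 from limma), a call that 4.62% of all tested genes shared in either direction. The fold sits at the threshold. FAK-WT replicate 3 had the lowest value, and without it the change was -0.80 with an adjusted p still under 0.05 (limma). A pseudocount of 1 gave -0.97 and centring each chromosome on its own median gave -0.91. In FAK-R454 over FAK KO Sort1 fell by 0.46 on the log2 scale (SE 0.07, adjusted p = 0.00353 from limma) and in KMF it was lower by a log2 fold change of -0.65 (SE 0.08, adjusted p = 3.51e-04). Both passed the test at any fold, which 19.7% and 51.8% of all tested genes did, and neither reached the fold for a call, which 2.74% and 8.01% did. Every FAK-WT sample lay below both FAK-R454 samples, and the difference between the lines with active and inactive FAK, -0.58 on the log2 scale (SE 0.23), did not pass the test over all genes (adjusted p = 0.170 from limma). In that pair 1.44% of all genes were called and 7.82% passed at any fold.

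In β-catenin ΔGSK over FAK KO Sort1 rose by 0.85 on the log2 scale (SE 0.07, adjusted p = 1.35e-05 from limma), a mean 1.81 times that of FAK KO. Of all genes tested in this comparison 58.1% passed at any fold and 12.1% were called. Sort1 thus moved in opposite directions in the lines where Ngfr was high, falling in FAK-WT and rising in β-catenin ΔGSK. Ordered by mean, its level was 9.52 ± 2.55 FPKM in FAK-WT, 12.2 ± 1.28 in KMF, 13.9 ± 0.486 in FAK-R454 (n = 2), 19.1 ± 0.632 in FAK KO and 34.7 ± 1.90 in β-catenin ΔGSK (SD, n = 3 unless given). The step from FAK-WT to KMF did not pass the test (adjusted p = 0.152 from limma), nor did that from KMF to FAK-R454 (adjusted p = 0.148), whose samples did not overlap. The steps from FAK-R454 to FAK KO and from FAK KO to β-catenin ΔGSK are the changes given above.

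The ratio of Ngfr to Sort1 FPKM, receptor to co-receptor at the mRNA level, was 0.0477 ± 0.0168 in KMF and 0.104 ± 0.0279 in FAK KO (SD, n = 3 each). It was 0.237 ± 0.0943 in FAK-R454 (SD, n = 2), 0.914 ± 0.117 in FAK-WT and 4.99 ± 0.452 in the β-catenin ΔGSK line (SD, n = 3 each). Ngfr mRNA was thus scarcer than Sort1 in KMF, FAK KO and FAK-R454, about level with it in FAK-WT, and in excess in β-catenin ΔGSK. The genes most alike Sort1 over the 14 samples were Ahcy (r = 0.985), which hydrolyses S-adenosylhomocysteine, Pag1 (r = 0.983), a membrane adaptor that binds Csk, and Ppargc1a (r = 0.982), a transcriptional coactivator of mitochondrial biogenesis.

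Bdnf (ENSMUSG00000048482, plus strand of chromosome 2 at 109674700 to 109727007) was expressed at a low level in all lines and varied less between lines than Ngfr and Sort1. An annotated antisense gene, Gm45346, overlaps its exons. Bdnf had 1.65, 1.79 and 1.97 FPKM in KMF, 1.94, 1.87 and 1.74 in FAK KO and 2.08 and 2.10 in FAK-R454. It had 2.19, 2.34 and 1.99 FPKM in FAK-WT and 1.40, 1.10 and 1.20 FPKM in β-catenin ΔGSK. The β-catenin ΔGSK samples lay below all other samples, and the other lines were close together.

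In β-catenin ΔGSK over FAK KO Bdnf fell by 0.55 on the log2 scale (SE 0.14, adjusted p = 0.00919 from limma), from 1.85 ± 0.0999 to 1.24 ± 0.155 FPKM (SD, n = 3 each). The ligand and Ngfr lay on opposite sides of FAK KO in that line. Over FAK KO the log2 fold change of Bdnf was 0.22 in FAK-WT (SE 0.12, adjusted p = 0.175), 0.17 in FAK-R454 (adjusted p = 0.366) and -0.04 in KMF (adjusted p = 0.801, all limma). With each chromosome centred the first of these came to 0.39 (adjusted p = 0.0347). FAK-WT over FAK-R454 gave 0.05 (adjusted p = 0.807). Of the order β-catenin ΔGSK, KMF, FAK KO, FAK-R454, FAK-WT, only the step from β-catenin ΔGSK to KMF passed the test (adjusted p = 0.0134 from limma). The genes most alike Bdnf were Rbx1 (r = 0.956), a ubiquitin ligase subunit, 1810011O10Rik (r = 0.951) and Nrp2 (r = 0.947), a semaphorin and VEGF receptor.

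**Figure D3:**
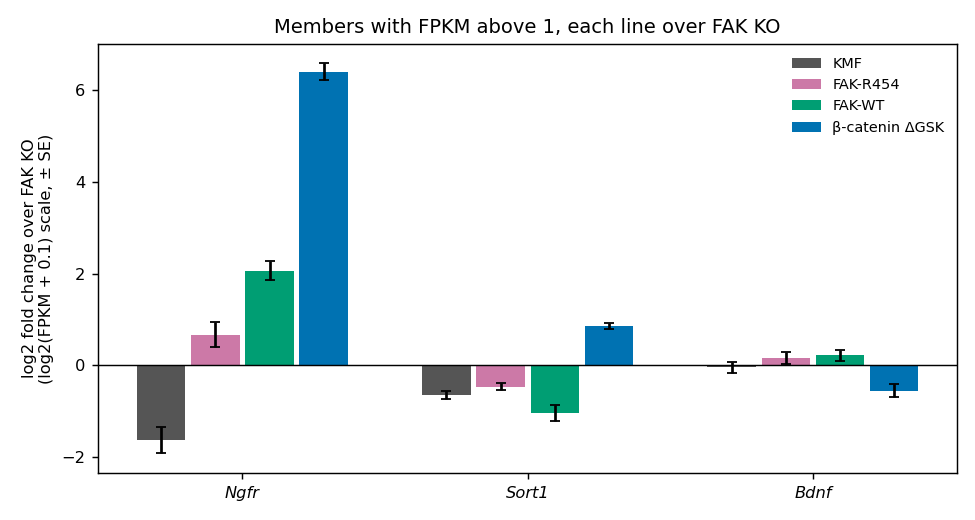
Log2 fold change over FAK KO (log2(FPKM + 0.1) scale, bars, with standard errors from limma) of Ngfr, Sort1 and Bdnf in KMF, FAK-R454, FAK-WT and β-catenin ΔGSK. Ngfr is a description without a test, Sort1 is below 0 in every line but β-catenin ΔGSK, and Bdnf is clearly below 0 only in β-catenin ΔGSK, at -0.55.

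Ntf3 (ENSMUSG00000049107, minus strand of chromosome 6 at 126101413 to 126166744), which encodes neurotrophin-3, was seen in single fragments. The KMF libraries held 4, 6 and 4 fragments, the FAK KO libraries 1, 0 and 0, and the FAK-R454 libraries 0 and 0. The FAK-WT libraries held 1, 1 and 2 fragments and the β-catenin ΔGSK libraries 19, 9 and 3, the latter amounting to 0.469, 0.248 and 0.0714 FPKM. Each β-catenin ΔGSK and each KMF library held more than any FAK KO library. Scaled to depth the ratio of β-catenin ΔGSK to FAK KO was 31.4, with a 95% exact interval of 5.23 to 1278, and that of KMF to FAK KO was 12.8 (1.94 to 540). These intervals cover counting error only, and the 3 β-catenin ΔGSK libraries differed among themselves by more than those of any other line. FAK KO replicate 1 held the only FAK KO fragment, so without it neither ratio has a denominator. Without β-catenin ΔGSK replicate 1, which held 19 of the 31 fragments of its line, the first ratio was 18.4 (2.73 to 788), and without FAK KO replicate 3 the ratios were 20.9 (3.49 to 853) and 8.52 (1.30 to 360).

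Ntrk2 and Ntrk3, the Trk receptors described here, were near the floor of detection. Ntrk2 (ENSMUSG00000055254, chromosome 13 at 58806596 to 59133970) had 3 fragments out of 407172256 in all 14 samples, 1 in KMF and 2 in β-catenin ΔGSK, and none in FAK KO, FAK-R454 or FAK-WT. A count of 0 in FAK KO allows up to 0.00417 FPKM, in FAK-WT up to 0.00399 and in FAK-R454 up to 0.00591 FPKM. Ntrk3 (ENSMUSG00000059146, chromosome 7 at 78192362 to 78578408) had 4 fragments, 1 in each line except KMF, and no more than 0.0116 FPKM in any sample. At this depth no difference between lines was detectable for Ntrk2 and Ntrk3. Of the 4 receptor genes described, Ngfr and Sort1 were those with a mean above 1 FPKM in any line.

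Ntf5, which encodes neurotrophin-4/5, was read beside Bdnf and Ntf3. The FPKM of these 3 ligands summed to 4.10 ± 0.382 in β-catenin ΔGSK, 4.62 ± 0.194 in FAK-WT, 3.94 ± 0.501 in FAK KO and 3.21 ± 0.0268 in KMF (SD, n = 3 each), and to 4.91 ± 0.0778 in FAK-R454 (SD, n = 2). Bdnf made up 56.1% of the sum in KMF, 47.3% in FAK KO, 42.6% in FAK-R454, 47.2% in FAK-WT and 30.2% in the β-catenin ΔGSK line. Ntf5 made up 40.5%, 52.5%, 57.4%, 52.1% and 63.7% in the same order. Bdnf was the larger share in every KMF sample and the smaller in every FAK-R454 and β-catenin ΔGSK sample. In FAK KO it ran from 41.7% to 50.7% and in FAK-WT from 41.3% to 53.0%, so that samples of these lines lay on both sides of an even split. Ntf3 contributed from 1.93% to 10.5% in the β-catenin ΔGSK samples and from 2.47% to 4.74% in the KMF samples, so these lines overlapped, and under 1% in every other sample. The β-catenin ΔGSK mean was 6.15% ± 4.30 (SD, n = 3), and 3.97% without replicate 1.

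Ntf5 was lower in KMF than in FAK KO, with a log2 fold change of -0.63 (adjusted p = 0.0164 from limma), and did not pass the test in the other lines over FAK KO.

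**Figure D4:**
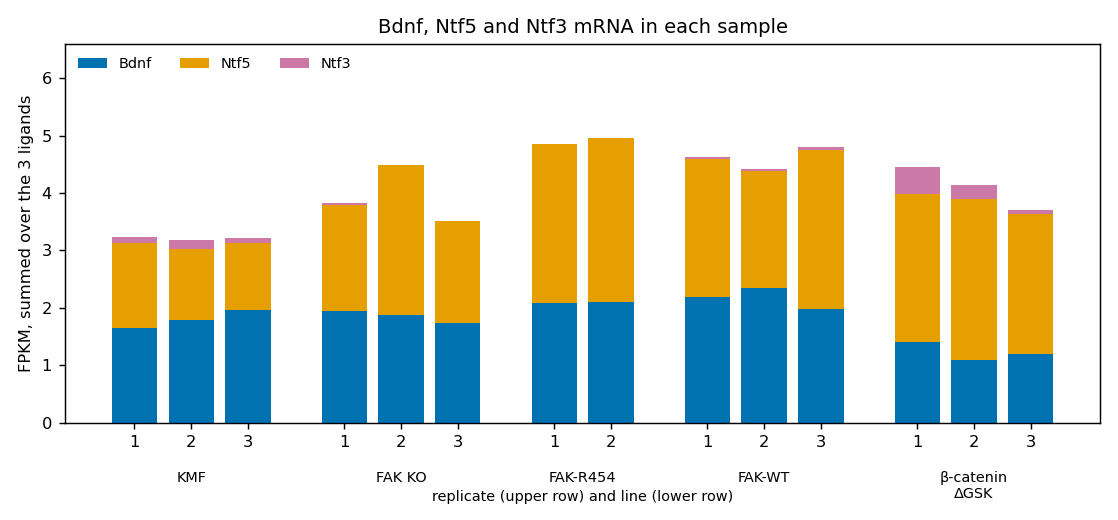
FPKM of Bdnf, Ntf5 and Ntf3 stacked for each of the 14 samples, by line and replicate, on an axis that starts at 0. The sums run from 3.18 to 4.97 FPKM, Bdnf and Ntf5 make up most of each bar, and the Bdnf segment is smallest in the 3 β-catenin ΔGSK samples.

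Counting the members other than Ngfr, 1 of the 2 tested in FAK-WT over FAK KO was called (Sort1, lower), beside the 4.62% of all genes. At any fold 40.8% of all genes passed there. Of the 2 tested in each, none was called in β-catenin ΔGSK, FAK-R454 or KMF over FAK KO or in FAK-WT over FAK-R454. This held by limma on FPKM and by limma-voom. Of all tested genes 12.1%, 2.74%, 8.01% and 1.44% were called there by limma, in the same order. With 2 members, a count of none cannot be set apart from these shares. At an unadjusted p under 0.05 the number of these members was 2 in β-catenin ΔGSK, 1 in FAK-R454, 1 in KMF and 1 in FAK-WT over FAK-R454. Of all tested genes 63.1%, 36.2%, 58.2% and 26.9% were under it. The median of all tested genes lay between -0.09 and -0.03 in these 5 comparisons.

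Of 60 other genes of the pathway, 47 were tested in FAK-WT over FAK KO, with 11 higher and 5 lower at any fold and 1 called, and a median of 0.04. That is 34.0% at any fold and 2.13% called, below the 40.8% and 4.62% of all genes. Among the groups, the genes that Trk signalling can induce, immediate early genes with many other inducers, had 5 of 6 tested higher at any fold, a threshold that 40.8% of all genes passed in either direction. These were Egr3 at a log2 fold change of 1.09, Fos at 0.93, Arc at 0.89, Egr1 at 0.80 and Nr4a1 at 0.75. For Egr1 the samples overlapped, from 4.94 to 10.8 FPKM in FAK-WT and from 3.38 to 5.15 in FAK KO. Its highest value was that of FAK-WT replicate 3. Egr3 (adjusted p = 0.0252 from limma) was the called gene, and its call was lost when either of FAK KO replicates 1 and 2 or FAK-WT replicates 2 and 3 was left out. In FAK-R454 over FAK KO only Egr1 of this group passed, at 0.74 (adjusted p = 0.0164). Compared directly, FAK-WT was higher than FAK-R454 in Fos, by 1.15 (adjusted p = 0.00452), and in Arc, by 0.89 (adjusted p = 0.0256, both limma). The call of Fos was lost with a pseudocount of 1. Its log2 fold change ran from 1.10 to 1.21 as each sample was left out. In these FAK-WT libraries the Trk receptors themselves were at the levels given above.

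In β-catenin ΔGSK over FAK KO 46 of the 60 were tested, 15 higher and 13 lower at any fold, with 5 and 2 called and a median of -0.04. The shares, 60.9% at any fold and 15.2% called, were near the 58.1% and 12.1% of all genes. Among the genes of proneurotrophin processing, Plat rose by a log2 fold change of 1.26 (adjusted p = 1.33e-06 from limma), from 17.1 to 41.0 FPKM. Pcsk5, a furin-type convertase, rose by 2.10 (adjusted p = 1.12e-06 from limma), from 1.32 to 5.99 FPKM, while furin itself was at 62.9 FPKM in FAK KO and 57.7 in β-catenin ΔGSK (adjusted p = 0.216).

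Lingo1, a membrane protein that forms a complex with p75 and the Nogo receptor, rose in β-catenin ΔGSK by 2.25 (adjusted p = 9.00e-06 from limma). It averaged 2.47 FPKM in FAK KO, 12.0 in β-catenin ΔGSK, 16.7 in KMF, 4.76 in FAK-R454 and 3.72 in FAK-WT. KMF, the line lowest in Ngfr, was thus highest in Lingo1. Also called were Fos at 1.64 and Nr4a1 at 1.15, both higher, and Sh2b2, a Trk-binding adaptor, at -1.39. Arc and Egr1, which were higher in FAK-WT, were lower in β-catenin ΔGSK, at -0.57 and -0.49 (adjusted p = 0.0138 and 0.0244 from limma).

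Of the 9 tested partners of p75 inside the cell, 2 were higher and 3 lower in β-catenin ΔGSK at any fold, close to the 58.1% of all genes, and none was called, against 12.1%. Ngfrap1, also named Bex3 or NADE, binds the p75 death domain region. It was higher than in FAK KO in each of the other lines, at 0.51 in FAK-WT, 0.77 in β-catenin ΔGSK, 0.75 in FAK-R454 and 0.95 in KMF. Maged1, also named NRAGE, was at 169 FPKM in FAK KO and 136 in β-catenin ΔGSK (log2 fold change -0.31, adjusted p = 0.00299 from limma).

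In KMF over FAK KO 49 genes of the pathway were tested, 19 higher and 8 lower at any fold, with 4 and 2 called and a median of 0.16. These are 55.1% at any fold and 12.2% called, beside 51.8% and 8.01% of all genes. Sorcs2, a sortilin relative that also binds proneurotrophins with p75, lay between 2.42 and 2.59 FPKM in the KMF samples and between 0.698 and 0.782 in those of FAK KO, a log2 fold change of 1.63 (adjusted p = 1.87e-05 from limma). The KMF samples thus lay well above FAK KO for Sorcs2 and below it for Sort1. Lingo1 at 2.71, Egr1 at 1.84 and the convertase Pcsk6 at 1.46 were the other genes called higher, and the adaptor Shc2 at -2.08 and Pcsk5 at -1.10 those called lower. In FAK-R454 over FAK KO 47 were tested, 7 higher and 3 lower at any fold, none called by limma and 1 by limma-voom, and 17 had an unadjusted p under 0.05. At any fold this is 21.3%, beside 19.7% of all genes, and at an unadjusted p it is 36.2%, as over all genes, of which 2.74% were called. In FAK-WT over FAK-R454 3 were higher and 3 lower at any fold, and 1 of 47 was called, Fos, or 12.8% and 2.13% beside 7.82% and 1.44% of all genes.

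**Figure D5:**
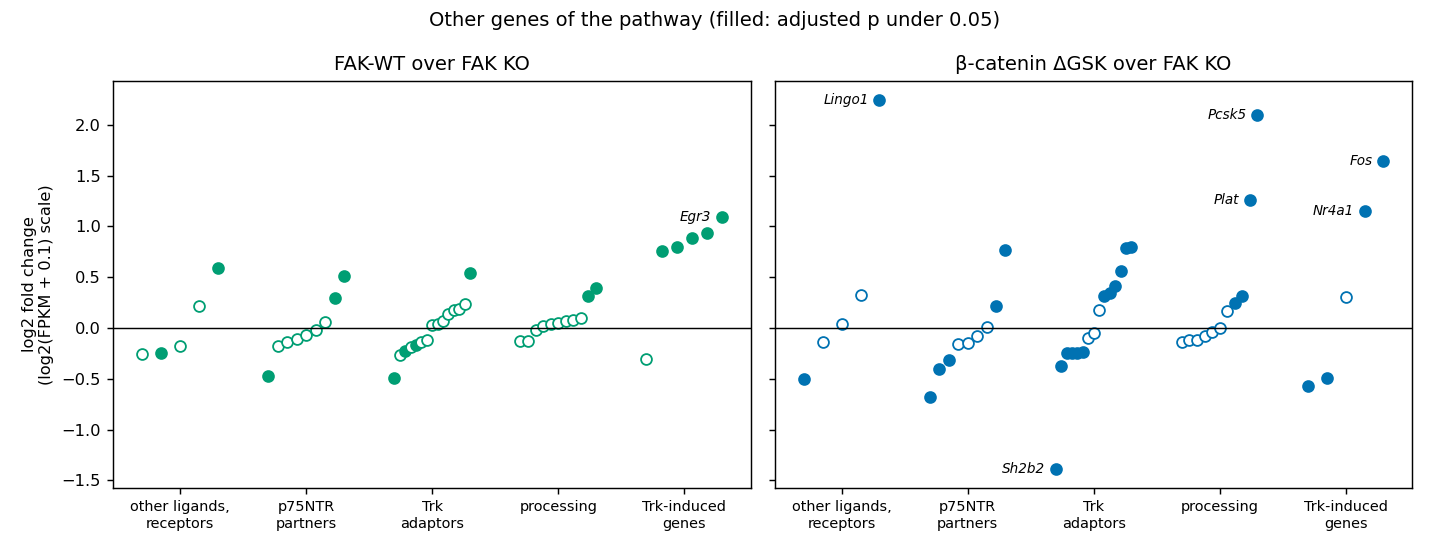
Log2 fold change over FAK KO (log2(FPKM + 0.1) scale) of the tested genes among the 60 others of the pathway, by group, in FAK-WT (left) and β-catenin ΔGSK (right). Filled points passed an adjusted p under 0.05 (limma) and called genes are named, from Sh2b2 at -1.39 to Lingo1 at 2.25 on the right, with 1 tested gene not shown.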

How the data were processed

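The authors deposited 1 table of FPKM values for 35275 genes in the 14 samples, made from paired-end poly(A) libraries. The study's methods name TopHat2 as the aligner, while the submitters' processing notes list STAR 2.5, CASAVA 1.8, DESeq2 and the build mm10, and which of them made the table is not given in the sources used here. Of the gene identifiers, 34490 were found in GENCODE annotation of GRCm38. FPKM values multiplied by gene length were whole multiples of 1 fragment in 100% of cases, which gave the fragments used here. The tolerance was 0.01 for small counts and grew in proportion to the count for large ones, where the check is looser. The genes and lists were chosen with earlier results of these data known. Each pair of lines was fitted with limma 3.58.1 (R 4.3.3; lmFit, eBayes with trend) on log2(FPKM + 0.1). The fit was checked on simulated data for some pairs of lines, with the same spread for all genes and changes above the fold threshold. That check does not cover noisier genes or changes near the threshold. Genes named are the members, the called pathway genes, the Trk-induced group and other family members. The 3 genes most alike a member were ranked by Pearson's r. Alternatives were another pseudocount, filter, scaling, chromosome centring, fold threshold, limma-voom on recovered fragments, the replicate number as a block, and leaving out each sample. Sequences are from RefSeq (GRCm38.p6), which gave promoters for Ngfr, Bdnf, Ntf3 and Ntrk2. Some genes of the lists are not reported here by name, and the counts over the lists include them. A test of Ngfr between KMF and FAK-R454 that had been planned was dropped, because FAK-R454 is one of the lines its choice used.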

Additional observations from a re-analysis of the deposited data

How the results depend on the processing

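Counts of called members other than Ngfr were small, so single genes decided them. In FAK-WT over FAK KO the call of Sort1 gave 1, and the count was 0 with a pseudocount of 1, with median-of-ratios scaling and with chromosomes centred, and ran from 0 to 1 as samples were left out, 0 without FAK-WT replicate 3. In β-catenin ΔGSK over FAK KO it went from 0 to 1 without a filter and with limma-voom without a filter, and to 2 with a log2 fold of 0.5 or with no fold threshold. In FAK-R454 over FAK KO it became 1 without a fold threshold, and in KMF over FAK KO it became 1 with limma-voom without a filter, a log2 fold of 0.5 or no fold threshold. The member called without a filter was Ntf3, higher in β-catenin ΔGSK (adjusted p = 0.0203 from limma, 0.00905 from limma-voom) and in KMF (0.0110 from limma-voom; 0.00724 from limma, under the fold for a call), all against 1 fragment in FAK KO. The number of neighbouring pairs in the orders of Sort1 and Bdnf past the threshold ran from 2 to 3 of 8.

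Of the other pathway genes, FAK-WT over FAK KO gave 1 call, and 0 with a pseudocount of 1 and without a filter, 2 with median-of-ratios scaling, 3 with chromosomes centred and with limma-voom without a filter, 8 at a log2 fold of 0.5 and 16 with no fold threshold. Leaving out samples gave 0 to 2. β-catenin ΔGSK over FAK KO gave 7, then 11 with limma-voom without a filter, 14 at a log2 fold of 0.5 and 28 with none, and 7 to 7 on leaving out samples. FAK-R454 over FAK KO gave 0, then 2 without a filter, 1 with limma-voom, 4 with limma-voom without a filter, 6 at a log2 fold of 0.5 and 10 with none, and 0 to 1 on leaving out samples, 1 without FAK KO replicate 2. KMF over FAK KO gave 6, then 15 at a log2 fold of 0.5 and 27 with none, and 5 to 7 on leaving out samples. FAK-WT over FAK-R454 gave 1, then 0 with a pseudocount of 1, 2 without a filter, with limma-voom without a filter and at a log2 fold of 0.5, and 6 with none. It ran from 0 to 2 on leaving out samples, 2 without FAK-WT replicate 3 and 0 without either FAK-R454 sample.

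With the replicate block FAK-WT over FAK-R454 gave 2 calls among the pathway genes, and no other count of calls moved by over 1.5 times. Same-numbered samples had deviations correlated between -0.21 and -0.05 in FAK-WT over FAK KO and between 0.08 and 0.45 in β-catenin ΔGSK over FAK KO, so the numbers were not taken to pair samples. The sign of the Bdnf difference, which passed no test, turned in KMF over FAK KO to 0.00339 with median-of-ratios scaling and ran from -0.10 to 0.020 as samples were left out, positive without KMF replicate 1. In FAK-WT over FAK-R454 it ran from -0.00450, without FAK-WT replicate 2, to 0.11. Median-of-ratios scaling moved the median of all genes by 0.10 in β-catenin ΔGSK over FAK KO. Ngfr in KMF over FAK-R454 went from -2.30 to -1.40 with a pseudocount of 1, and ran from -2.67 to -1.93 as samples were left out. Where a value moved, the cause was not tested. FAK-R454 had 2 samples, which limits every comparison with it, and Ntf3, Ntrk2 and Ntrk3 were below the FPKM filter in every comparison.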
